A study of Danio rerio with 16 samples.

Results

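The cytosolic ribosomal proteins were described in fast muscle of adult zebrafish after exercise training, apart for the large and the small ribosomal subunit. The members were the array probes whose RefSeq transcript accession belonged to a zebrafish gene symbol starting with rpl, rplp or rps and a digit, without the S6 kinases. They were 109 of 43803 non-control probes. Of these, 64 probes of 37 genes belonged to the large subunit and 45 probes of 27 genes to the small subunit. The RefSeq gene table listed 84 symbols of the family, and the 20 without a named probe, among them rplp1, rplp2, rpl10, rps16, rps18 and rps19, were not analysed here. One gene, rpl7l1, matched the pattern but is a paralog of rpl7 whose yeast relative acts in ribosome assembly.

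The cytosolic ribosome consists of a small subunit, which decodes the messenger, and a large subunit, which joins the amino acids and releases the chain through an exit tunnel. Each subunit is built from ribosomal RNA and many small proteins. The messengers of these proteins are among the most abundant of most cells, and in mammals they start with a pyrimidine tract through which the mTOR pathway controls their translation. In skeletal muscle, the number of ribosomes sets how much protein a fibre can make.

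Non-exercised fish swam at 0.1 m/s and exercised fish at 0.4 m/s for 6 h per day, over 20 experimental days. All were wild-type adults from a pet shop, and each group trained in 1 swim tunnel, so that tunnel and group cannot be told apart. Total RNA of the dorsal fast muscle of 8 fish per group was hybridised to single-colour Agilent arrays, 1 array per fish. The question addressed was which transcripts differ with training. Levels are given as the log2 of the background-subtracted spot signal over the 75th percentile of the array, and differences as log2 fold change, exercised over non-exercised, with the standard error (SE) of limma. A probe was called when its adjusted p (Benjamini-Hochberg over all 43803 probes) was under 0.05.

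Each of the 4 slides held 4 arrays of 1 group, non-exercised fish on slides 1 and 2 and exercised fish on slides 3 and 4, and each group was scanned on a day of its own, so that scan day and group cannot be told apart. No spot was saturated, and the share of probes well above background ranged from 21.1% to 54.0% over the arrays. Of all 43803 probes, 6.37% were called, 4.58% as higher and 1.79% as lower with exercise, and the median log2 fold change was 0.26. Against all non-exercised fish, the median over all probes was -0.30 for the exercised fish of slide 3 alone and 0.61 for those of slide 4 alone. Over the 7948 probes well above background on all 16 arrays the median was 0.03. Of 17 listed defining genes of fast muscle, 11 had a probe. By log2 fold change, 9 of these 11 were above 0 and 2 below, and 0 were called higher. Called lower was 1, tnnt3a (-2.81 ± 0.65, adjusted p = 0.0135), at percentile 56.3. The log2 of the summed signal of the 11, on the scale of the levels, lay between 10.46 and 12.40 in every fish. A gene as dim as tnnt3a adds little to this sum. For 5 red cell genes the log2 sum lay between 6.16 and 8.48 in non-exercised and between 7.79 and 9.55 in exercised fish, with 0 called. By log2 fold change all 5 were above 0, with a median of 1.32. For 6 leukocyte genes the log2 sum lay between 4.59 and 8.36 in non-exercised and between 4.35 and 7.78 in exercised fish, with 0 called. All 6 were below 0, with a median log2 fold change of -0.88. The part of these cells in the results was not tested, and in whole muscle fewer cells of a type and less RNA per cell cannot be told apart.

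Ribosomal protein probes were among the brightest of the array. The median probe of the large subunit lay at percentile 98.8 of the mean signal of all probes and that of the small subunit at percentile 98.98. Of the 109 probes, 45 lay above the 99th percentile, 25 of the large and 20 of the small subunit, and 105 were well above background on all 16 arrays. The brightness of a probe depends on its sequence as well as on the transcript, so that the ranks order signals and not transcript numbers. The brightest of all was a probe of rps2, a protein at the entry of the messenger channel, which ranked 193rd on the array, and its other probe ranked 223rd. In the large subunit the brightest were rpl7a (rank 227), rpl26 (rank 236) at the exit tunnel, and rpl24 (rank 248). In the small subunit, rps25 (rank 235) in the head and rps3a (rank 238) followed rps2.

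**Figure D1:**
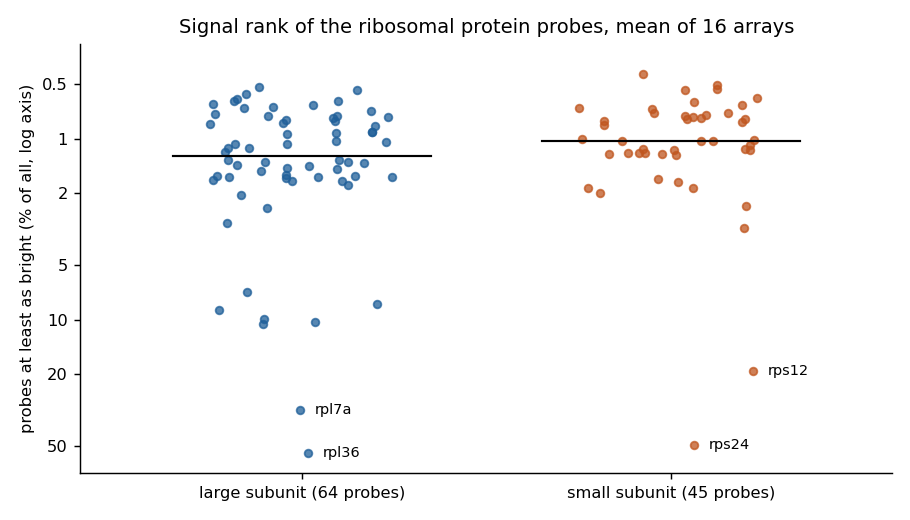
Signal rank of the 109 ribosomal protein probes, as the percentage of all non-control probes that were at least as bright (log axis, brightest at the top), with 1 point per probe and a line at the median of each subunit. Most points lie near 1%, and the probes named in the plot are the 4 dimmest, 2 of each subunit.

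A few members were far dimmer. The only probe of rpl36 lay at percentile 45.8 and that of rps24 at percentile 50.8. A second probe of rpl7a lay at percentile 68.7 and the dimmest of rps12 at percentile 80.8, each from another set of probes on the array than the brighter ones of these genes. Only 1 array of each group had the rpl36 spot well above background. Its level was 2.73 in non-exercised fish 5 and 2.53 in exercised fish 4, while the medians of the groups were -3.79 and -3.31. It therefore read background in most fish and a clear signal in 1 fish of each group.

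The brightness of the members came with a loss of spots. The scanner software marked 21.8% of the 1744 member spots as outliers, 20.0% in the large and 24.3% in the small subunit, against 0.795% of the spots of all probes. Other probes above the 99th percentile lost 30.5% of their spots. The loss differed between slides, with 20.0% and 23.6% of member spots on the slides of non-exercised fish and 41.5% and 2.06% on those of exercised fish. Only 22 of the 109 probes were measured on all 16 arrays, and rpl23a was left with 3 fish per group for its brighter probe. Fold changes are given with outlier spots left out, as tested, unless they are said to keep them, and levels in single fish include these spots.

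In the large subunit, 0 of 64 probes were called in either direction, against 6.37% of all probes. The log2 fold change was below 0 for 50 of the 64, with a median of -0.18, against 0.26 over all probes and 0.03 over those well above background on all 16 arrays. The exercised fish of slide 3 alone gave a median of -0.19 over 53 large subunit probes, above the -0.30 over all probes. Those of slide 4 alone gave -0.18, below the 0.61 over all probes, so that the direction of the gap to all probes differed between slides. The gap to probes well above background on all 16 arrays did not, at -0.21 for slide 3 alone and -0.21 for slide 4 alone. With outlier spots kept, 58 of 64 were below 0 and the median was -0.22. The median SE of a single probe was 0.33, larger than the median difference. Lower with an unadjusted p under 0.05 were 2 probes, both of rpl7l1, against 7.41% of all probes. Higher at this p were 0, against 5346 of the 43803 probes. Exercised and non-exercised fish overlapped for every probe of the large subunit, while over the whole array the groups were apart for 1.28% of the probes.

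The proteins of the P stalk, which recruits the elongation factors, were represented by rplp0 and by rpl12 at its base. The level of the brighter rplp0 probe ranged from 7.28 to 9.15 (median 8.97) in non-exercised and from 6.88 to 8.91 (median 8.43) in exercised fish. None of the 8 exercised fish lay above the non-exercised median. The log2 fold change was -0.30 ± 0.34 (SE, adjusted p = 0.663) with a 95% interval from -1.04 to 0.44, and -0.37 ± 0.33 with outlier spots kept. The 3 probes of rpl12 had values of 0.05, -0.14 and -0.17, and with outlier spots kept of 0.03, 0.12 and -0.17.

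Rpl5 and rpl11 bind the 5S ribosomal RNA, and in mammals they also restrain the p53 inhibitor MDM2. The 9 probes of rpl5a, rpl5b and rpl11 were all below 0, between -0.52 and -0.08, with a median of -0.23, and 0 were called. The brightest rpl5b probe ranged from 6.19 to 7.69 (median 7.44) in non-exercised and from 5.65 to 7.43 (median 7.18) in exercised fish, with a difference of -0.08 ± 0.30 (SE, adjusted p = 0.890), or -0.21 with outlier spots kept. For rpl11 the difference was -0.21 ± 0.38 (SE, adjusted p = 0.755), or -0.09 with outlier spots kept. The groups overlapped for all of these probes.

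Rpl3 reaches toward the peptidyl transferase centre, where peptide bonds form, and rpl8 lies beside it. The brightest rpl3 probe ranged from 7.22 to 9.06 (median 8.80) in non-exercised and from 6.81 to 8.55 (median 8.23) in exercised fish. All 5 rpl3 probes were below 0, between -0.41 and -0.24, and the brightest gave -0.41 ± 0.28 (SE, adjusted p = 0.488). The brighter rpl8 probe was at 0.17 ± 0.33 (SE, adjusted p = 0.775) and the dimmer at -0.05. Among the proteins that line the exit tunnel or its rim, the brightest probes of rpl4, rpl19, rpl23a, rpl26, rpl35 and rpl39 lay between -0.42 and 0.15, with 3 of 6 below 0, and with outlier spots kept 5 of 6 were below 0, with a median of -0.22.

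Rpl10a of the mobile L1 stalk, which guides the emptied transfer RNA out, was at 0.24 ± 0.39 for the brighter of 2 probes, measured in 3 non-exercised fish, and at 0.02 ± 0.27 with outlier spots kept. Of the other 22 large subunit genes, 17 were below 0 by their brightest probe, with a median of -0.13. The lowest were rpl38 (-0.71 ± 0.36, adjusted p = 0.314) and rpl29 (-0.70 ± 0.38, adjusted p = 0.341), and both were nearer 0 with outlier spots kept, at -0.43 and -0.32. The lower rpl13a probe was at -0.74 ± 0.37 (adjusted p = 0.308) from 4 fish per group, and at -0.32 with all 16. At the other end, rpl36 was at 0.46 ± 1.07.

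The lowest member of the large subunit list was rpl7l1. Its brighter probe ranged from 1.53 to 3.96 (median 2.88) in non-exercised and from 0.91 to 3.22 (median 1.52) in exercised fish, and no spot was marked. The log2 fold changes of its 2 probes were -1.01 ± 0.38 (adjusted p = 0.130) and -1.07 ± 0.40 (adjusted p = 0.127), with 95% intervals from -1.81 to -0.21 and from -1.91 to -0.23. It lay at percentile 91.2. Without exercised fish 1 both rpl7l1 probes were called lower (-1.23, adjusted p = 0.0346, and -1.25, adjusted p = 0.0486), against 2.73% of all probes. Without non-exercised fish 8 the dimmer one was (-1.33, adjusted p = 0.0259), against 2.58%. Exercised fish 1 held the highest exercised level of the brighter probe (3.22), so that leaving it out lowers the difference. With any other single fish left out, no large subunit probe was called.

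**Figure D2:**
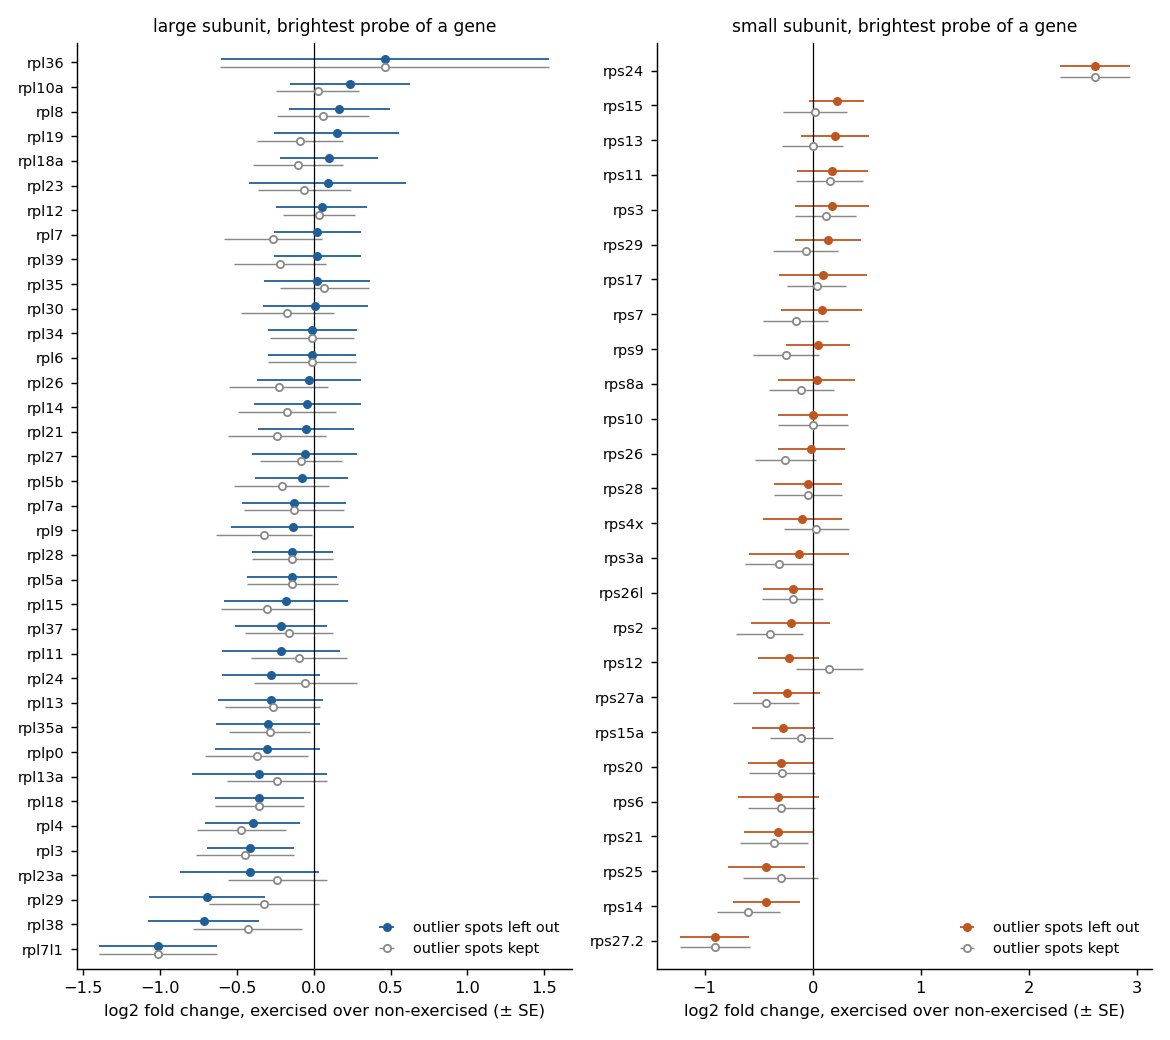
Log2 fold change, exercised over non-exercised, of the brightest probe of a gene, with its SE, for the large subunit (left) and the small subunit (right, with 1 gene left out). Filled points leave out spots marked as outliers and open points keep them, and rps24 stands alone at 2.61.

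In the small subunit, 1 of 45 probes was called higher, that of rps24, against 4.58% of all probes, and 0 were called lower, against 1.79%. The log2 fold change was below 0 for 24 of the 45 probes, with a median of -0.01. With outlier spots kept it was below 0 for 35 of 45, with a median of -0.16, and again rps24 alone was called, against 4.51% of all probes called higher and 1.71% lower. With these spots left out, slide 3 alone gave a median of 0.10 over 35 small subunit probes, against -0.30 over all probes. Slide 4 alone gave -0.04 over all 45, against 0.61. The medians over probes well above background on all 16 arrays were 0.02 for slide 3 alone and 0.03 for slide 4 alone. In the head of the small subunit, the brightest probes of 11 genes had a median of -0.05, and in the body and platform those of 16 genes a median of -0.11. With outlier spots kept these medians were -0.05 and -0.21. Exercised and non-exercised fish overlapped for every probe but that of rps24. Over the whole array the groups did not overlap, higher in exercised fish, for 1.08% of the probes.

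Rps24 takes part in maturation of the small subunit RNA, and in humans its mutation causes Diamond-Blackfan anaemia. Its level ranged from -5.05 to -3.47 (median -3.58) in non-exercised and from -2.40 to -0.45 (median -1.21) in exercised fish. The log2 fold change was 2.61 ± 0.32 (SE, adjusted p = 0.000134). The probe was well above background on all 4 arrays of slide 3, on 0 of slide 4 and on 0 of the 8 non-exercised arrays, so that the fitted values below compare signals that in most fish were not well above background. The mean of the 8 exercised arrays was 1.67-fold over the lowest signal well above background on non-exercised arrays, but 4 of these 8 were themselves not well above background, so that no firm lower limit is given for the group.

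The negative control spots gave the background of each array for rps24. Its log2 signal lay between -0.14 and 0.75 over them in non-exercised fish, between 3.02 and 4.17 on slide 3 and between 0.93 and 2.00 on slide 4. The values of the exercised slides did not overlap, and both lay above every non-exercised fish. Over the 75th percentile, the 4 fish of slide 3 gave 2.73 ± 0.40 (adjusted p = 0.00293) against all non-exercised fish and those of slide 4 gave 2.49 ± 0.36 (adjusted p = 0.00264). With slide 3 alone 3.01% of all probes were called higher and with slide 4 alone 33.2%. After normexp background correction the difference was 1.02 ± 0.27 and the call was lost (adjusted p = 0.0551), with 1.12% of all probes called higher. Without background correction it was 0.96 ± 0.25 (adjusted p = 0.0439), against 1.62%, and with the slide as a random block the adjusted p was 0.0386, against 0.187%. Each slide held 1 group, and this fit used 1 correlation (0.30) for all probes. Its p therefore does not measure the spread of rps24 between slides. Rps24 is one of the genes that the study lists under mTOR signalling, a list chosen on these samples.

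Next to rps24, the member nearest the threshold was rps27.2, a zinc finger protein of the platform with paralogs in vertebrates. Its level ranged from 5.91 to 8.06 (median 7.29) in non-exercised and from 5.14 to 6.62 (median 6.39) in exercised fish. None of the 8 exercised fish lay above the non-exercised median, and non-exercised fish 6 and 7 lay within the exercised range. The log2 fold change was -0.91 ± 0.32 (SE, adjusted p = 0.105), with a 95% interval from -1.58 to -0.23. The difference was -0.90 ± 0.42 for slide 3 alone and -0.92 ± 0.39 for slide 4 alone. It was called lower after a median shift (-1.16, adjusted p = 0.0468), with 3.26% of all probes called lower. So it was after cyclic loess (-1.04, adjusted p = 0.00119), with 3.53%. With the fit limited to probes well above background on all 16 arrays it was called too (adjusted p = 0.0393, with 8.32% of probes called lower). It was not called after normexp, without background correction, or with the slide or the replicate number as a block. With 1 fish left out, no small subunit probe was called lower unless that fish was non-exercised fish 6.

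Rps15, a protein of the head near the decoding site, served the study as reference gene of its quantitative PCR and was chosen there for its lack of change on these arrays, so that its value is given only as a description. Its level ranged from 7.66 to 8.90 (median 8.66) in non-exercised and from 7.13 to 8.97 (median 8.72) in exercised fish. The difference was 0.22 ± 0.25 (SE, adjusted p = 0.665) without the marked spot of exercised fish 1 and 0.02 ± 0.30 with it. Its 95% intervals were from -0.31 to 0.76 and from -0.60 to 0.64. The value of rps15 thus rested in part on whether 1 spot was kept.

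Rps6, whose phosphorylation by the S6 kinases reports mTOR activity, ranged from 6.33 to 8.41 (median 7.82) in non-exercised and from 6.48 to 8.02 (median 7.34) in exercised fish. The difference of its transcript was -0.32 ± 0.37 (SE, adjusted p = 0.670). Rps14 of the platform ranged from 7.76 to 9.24 (median 8.86) and from 6.99 to 8.63 (median 8.24), with a difference of -0.43 ± 0.31 (SE, adjusted p = 0.515) and of -0.59 ± 0.29 with outlier spots kept. No exercised fish lay above the non-exercised median of rps14.

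The 8 ribosomal protein genes that the study lists under mTOR signalling, chosen on these samples, were rps2, rps4x, rps7, rps10, rps14, rps24, rps26 and rps27. Of the rps27 paralogs, rps27.2 was measured here. The study lists all 8 as differentially expressed, at an unadjusted p under 0.01 of a t-test on values processed in another way. Here rps24 alone was called, at an adjusted p under 0.05 of limma, and also by a t-test of the values used here at 0.01. The study also assigned probes to genes by sequence comparison. The part of these differences in method was not tested. Apart from rps24 and rps27.2, the brightest probes of these 8 genes lay between -0.43 and 0.08, and with outlier spots kept between -0.59 and 0.03. The 2 probes of rps2 stood on either side of 0, at -0.20 ± 0.36 and 0.29 ± 0.33. With outlier spots kept both were below 0, at -0.40 and -0.01. Rps27a, made as a fusion with ubiquitin, was at -0.24 ± 0.31 (SE, adjusted p = 0.688) for its brighter probe and at 0.15 ± 0.36 for the other, and with outlier spots kept at -0.43 and -0.17.

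**Figure D3:**
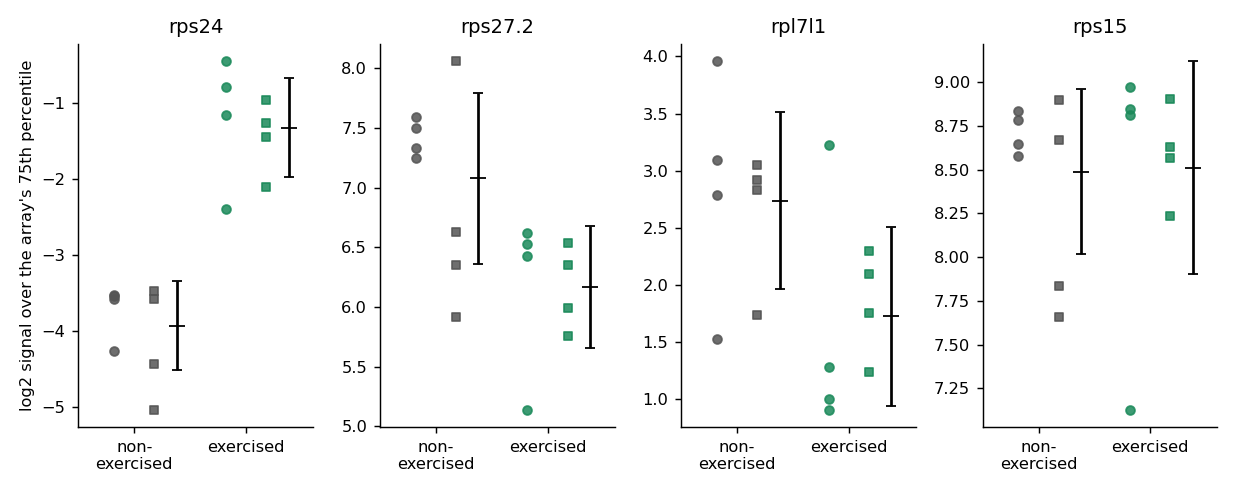
Level of 4 ribosomal protein probes in each fish (log2 signal over the 75th percentile of the array, outlier spots kept), with circles for slides 1 and 3, squares for slides 2 and 4, and bars for mean and SD over 8 fish. The groups of rps24 do not overlap, and those of rps27.2, rpl7l1 (brighter probe) and rps15 do.

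The medians of both subunits varied together from fish to fish, which does not hold for every member. The median level of the large subunit probes, outlier spots kept, ranged from 6.56 to 8.06 (median 7.66) in non-exercised and from 6.27 to 7.74 (median 7.41) in exercised fish. That of the small subunit ranged from 6.87 to 8.39 (median 7.98) and from 6.58 to 8.24 (median 7.90). Within a fish the small subunit lay above the large by 0.28 to 0.53 in non-exercised and by 0.28 to 0.62 in exercised fish, so that this difference of probe medians varied far less than either level. The brighter rpl7l1 probe, by contrast, was highest of the exercised fish in exercised fish 1 (3.22), where both medians were lowest.

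The lowest levels came from the arrays with the highest 75th percentile of signal. These were exercised fish 1 (log2 of 10.69), non-exercised fish 6 (10.42) and non-exercised fish 7 (10.18), while the other arrays lay between 8.65 and 9.98. In these 3 fish the large subunit deviated from the mean of all fish, outlier spots kept, by -1.17, -0.90 and -0.44, and other probes well above background on all 16 arrays by -0.52, -0.63 and -0.26. The part of array brightness in the comparison was not tested. Without these 3 arrays the median log2 fold change was -0.38 in the large subunit, with 62 of 64 probes below 0, and -0.29 in the small subunit, with 43 of 45 below 0. Rps24 was then called higher (3.68% of all probes), rps27.2 lower (1.65%), and no other member was called.

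**Figure D4:**
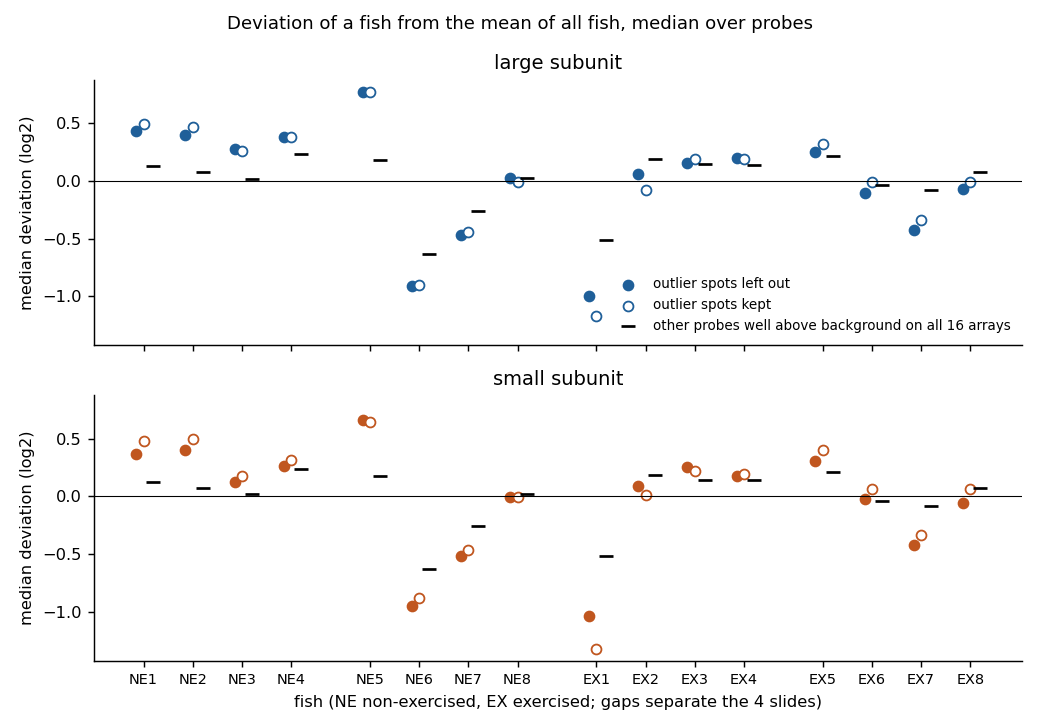
Deviation of each fish from the mean of all 16 fish (log2), as the median over the probes of the large subunit (top) and the small subunit (bottom), with outlier spots left out (filled) or kept (open). Bars give the other probes well above background on all 16 arrays, and exercised fish 1 and non-exercised fish 6 and 7 are the lowest.

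A rank within an array does not depend on its scaling. The median percentile of the large subunit probes was 98.65 to 98.94 (median 98.80) on non-exercised and 98.50 to 98.70 (median 98.65) on exercised arrays. That of the small subunit was 98.93 to 99.11 (median 99.01) and 98.81 to 98.98 (median 98.90). The exercised arrays stood lower in both subunits, with ranges that overlapped. A rank also depends on the other bright probes. The 394 other probes above the 99th percentile had a median log2 fold change of 0.42, or 0.28 with outlier spots kept. Of these 394, 328 were above 0 with outlier spots left out. Their part in the lower ranks was not tested.

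How many members were called lower depended on the normalization. The median log2 fold change was below 0 in both subunits under each of the other scalings. After quantile normalization 9 of 64 large and 7 of 45 small subunit probes were called lower, against 2.81% of all probes. After cyclic loess, which removes trends with brightness, these were 20 and 10, against 3.53%. With outlier spots kept, the counts were 15 and 13 after quantile normalization (3.49% of all probes) and 20 and 19 after cyclic loess (3.49%). Only 7 probes were called lower in all 4, among them the brightest probes of rplp0, rpl15, rps2 and rps27a. After a median shift, 0 large and 1 small subunit probe were called, although the medians were then -0.45 and -0.30 and 3.26% of all probes were called lower. The median of all probes, 0.26 over the 75th percentile, was -0.01 under cyclic loess, 0.01 under the median shift and 0.02 under quantile normalization.

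Probes of one gene were compared within each array, where a shift of the array cancels. Of the 64 genes, 24 had 2 or more probes, 69 in all. The log2 fold changes of the probes of a gene spanned 0.31 in the median gene, and 0.25 with outlier spots kept. All probes of a gene stood on 1 side of 0 in 9 genes, and in 18 genes with outlier spots kept. Each other probe was set against the brightest of its gene in 45 pairs with a two-sided exact permutation test of the difference within a fish, whose SE was 0.0897 in the median pair. After adjustment over the 45 pairs 0 passed the threshold (lowest adjusted p = 0.102), and 11 had an unadjusted p under 0.05. With outlier spots kept these were 0 (lowest adjusted p = 0.0816) and 11. Lost spots left some pairs few splits of the fish, as few as 15 for 1 pair of rps3a. Such pairs could not reach the threshold with these spots left out, so that their result decides nothing on agreement.

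The closest agreement was found for rps26, a messenger exit protein, whose 2 probes were at -0.01 and -0.03 with levels 0.13 apart (-0.25 and -0.22 with outlier spots kept), and for rpl7l1, with 0.06 between its probes. The 2 probes of rps28 were at -0.05 and 0.03, measured in all 16 fish. The 7 probes of rpl5b were all below 0 although their levels spanned 5.18 on the log2 scale. The 5 probes of rpl3 spanned 0.17 in log2 fold change over levels 2.52 apart, and 0.45 with outlier spots kept.

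The widest spans were those of rps12 (0.87), rps7 (0.86) and rpl7a (0.64). In rps12 and rpl7a the lower value came from the dim probe of the other set, and whether these 2 probes read the same strand as the bright ones was not tested. The dim rps12 probe ranged from -0.21 to 2.15 (median 0.98) in non-exercised and from -0.98 to 1.35 (median 0.27) in exercised fish, a difference of -0.74 ± 0.37 (SE, adjusted p = 0.280). The brightest rps12 probe was at -0.22 ± 0.28 and turned to 0.15 ± 0.31 with outlier spots kept. For rpl7a the dim probe was at -0.76 ± 0.40 (SE, adjusted p = 0.316), with levels 9.97 below the bright one, which was at -0.13 ± 0.34. In rps7 the 3 probes were at 0.40 ± 0.41, 0.08 ± 0.37 and -0.47 ± 0.29, the last in all 16 fish.

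**Figure D5:**
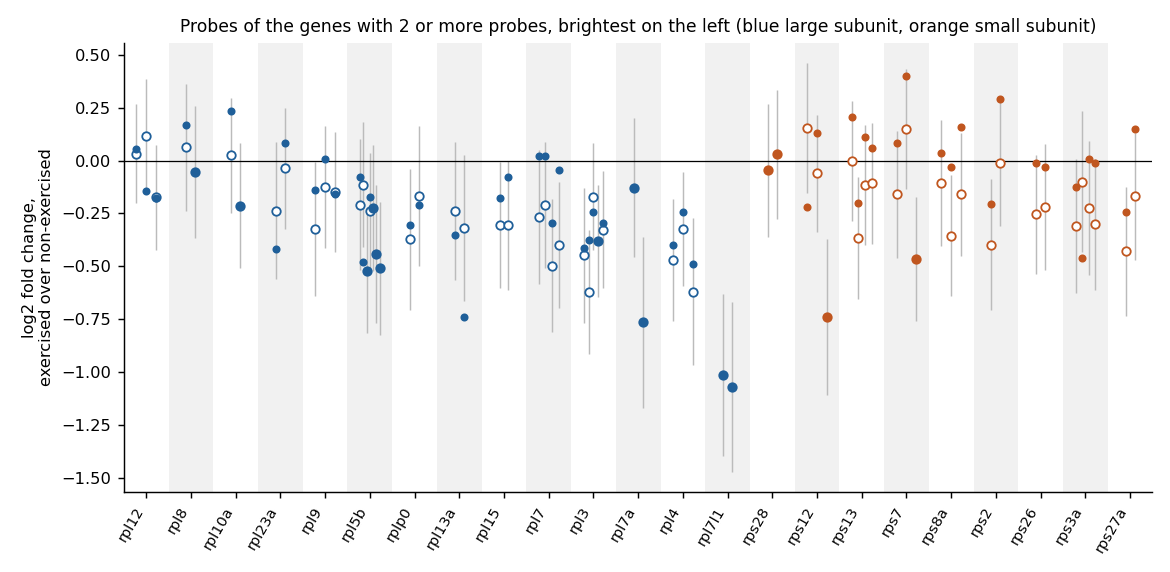
Log2 fold change, exercised over non-exercised, of the probes of ribosomal protein genes with 2 or more probes (1 gene left out), ordered from bright to dim within a gene. Filled points leave out marked spots, open points with SE keep them, and the dim probes of rpl7a and rps12 lie below the bright ones.

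Other genes of the pathway were counted by their brightest probe, from lists chosen with earlier results of these data known. Rack1, a scaffold protein on the head of the small subunit, was at -0.10 ± 0.48 (SE, adjusted p = 0.909) and at percentile 99.24. Of 24 mitochondrial ribosomal proteins, 19 were below 0, with a median of -0.24 and 0 called. Of 19 other messengers with a pyrimidine tract in mammals, 11 were below 0. Among these, the elongation factor eef1a2 of muscle and nerve was called higher (2.80 ± 0.38, adjusted p = 0.000288) and the initiation factor eif4bb lower (-1.44 ± 0.40, adjusted p = 0.0387). Over all probes 4.58% were called higher and 1.79% lower, and of all 5952 named genes by their brightest probe 191 and 179. With the slide as a random block neither eef1a2 nor eif4bb was called. Eif4bb was not called without the 3 brightest arrays, nor when any one of exercised fish 2, 3, 4 and 8 was left out, or of the non-exercised fish any but 2 and 8.

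Of 46 listed ribosome assembly genes, 23 had a probe. Of these 23, 21 were below 0, with a median of -1.08, and 8 were called lower and 0 higher. By their brightest probe, 179 of all 5952 named genes were called lower, as were 1.79% of all probes. The count called lower was 1 after normexp background correction and 4 after quantile normalization, with 2.81% of all probes for the latter. It was 7 after cyclic loess (3.53% of all probes) and 11 after a median shift (3.26%). With a replicate block it was 11, and with the filter on dim probes, on 8 arrays, 13 of 19. Shares of all probes are not given for normexp, this block and this filter, so that these counts describe the assembly genes alone. The difference from the ribosomal proteins was not tested. Fbl, the methyltransferase of ribosomal RNA, ranged from 1.75 to 4.24 (median 3.71) in non-exercised and from 1.17 to 2.94 (median 1.97) in exercised fish, with a difference of -1.41 ± 0.38 (adjusted p = 0.0325). Bysl, of small subunit assembly, was at -1.45 ± 0.39 (adjusted p = 0.0344). Ebna1bp2 (-1.70 ± 0.41, adjusted p = 0.0167), pes (-1.05 ± 0.30, adjusted p = 0.0445), rrs1 and rpf1, of large subunit assembly, were called as well, with gnl2 and nat10. With the slide as a random block 0 assembly genes were called lower, as were 0.0% of all probes. With 1 fish left out the count ranged from 1, when that fish was non-exercised fish 3, non-exercised fish 5 or exercised fish 2, to 14, when it was exercised fish 1. Without exercised fish 1, 2.73% of all probes were called lower, and for the fits with a count of 1 the share is not given.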

How the data were processed

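The authors scanned the arrays and deposited Agilent Feature Extraction output (version 10.7.3.1) with spot intensity on a linear scale: raw signal, background around the spot, and processed signal after background subtraction. Other deposited columns flag outlier spots and signal well above background. The authors' table of processed values was not used. Symbols came from the RefSeq gene table by accession.

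The log2 processed signal minus the array's 75th percentile over non-control probes was fitted with limma 3.58.1 in R 4.3.3, with marked outlier spots left out and no covariate. A pair of probes was compared with an exact permutation test. Alternatives were normexp (offset 50) or no background correction, quantile, median and cyclic loess scaling, filters on dim probes, slide and replicate blocks, the methods' t-test and leaving out each fish. Keeping outlier spots and leaving out the 3 brightest arrays were chosen after seeing the data.

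The members and lists were chosen with earlier results of these data known. Named individually were called probes, the 3 highest and 3 lowest fold changes of each subunit among probes well above background on all 16 arrays, the 3 brightest probes, the dimmest gene, genes with a textbook role or a part in the study, and the 3 widest and 3 narrowest ranges between probes. Other members were named after their values were seen, and 1 gene is not reported here by name. The scripts were tested on simulated data. Fish were separate animals, and the number of arrays limits precision.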

Additional observations from a re-analysis of the deposited data

Results flagged for a closer look

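The level of each of 40 named probes and the median level of each subunit were searched, group by group, for a fish far from the other 7, over 84 groups. A far fish was found in 23 groups. For a single group chance gives a far fish in about 1 of 20 cases. The 84 groups share the same arrays, so that this rate cannot be set against their count. Of the 23, 20 were low values of exercised fish 1, the array with the highest 75th percentile of signal and with 61 of 109 member spots marked as outliers.

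In exercised fish 1 the median level of the large subunit was 6.27. Single large subunit probes were low there for rpl3 (6.81), rplp0 (6.88), rpl7 (6.94), rpl24 (7.12), rpl8 (7.27), rpl19 (7.39), rpl7a (7.47) and rpl13a (6.49). In the small subunit, the low probes of this fish were both of rps2 (7.68 and 7.58), rps10 (5.10), rps12 (6.30), rps14 (6.98), rps15 (7.13), rps25 (6.98), rps26 (6.26), rps27a (7.08), rps28 (5.05) and rps7 (4.34). Values include spots marked as outliers.

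The other 3 far values were rpl36, high in non-exercised fish 5 (2.73) and in exercised fish 4 (2.53), and 1 probe of rps7, low in non-exercised fish 6 (6.37).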

How the results depend on the processing

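Background correction, scaling, filters and single fish were varied. The count of large subunit probes called lower (0) was 9 after quantile normalization and 20 after cyclic loess, and 15 and 20 with outlier spots kept. That of the small subunit (0) was 7 and 10, and 13 and 19 with outlier spots kept. It was 1 after a median shift, with or without outlier spots, without the 3 brightest arrays, with or without outlier spots, and with either filter on dim probes, on 8 or on 16 arrays. Leaving out single fish gave 0 to 2 large and 0 to 1 small subunit probes. The small subunit count called higher (1, rps24) was 0 after normexp and 0 with either filter, which removes this probe. The cause of the other changes was not tested. Ranked by the mean signal over the arrays of 1 group, rather than array by array, the median large subunit probe lay at percentile 98.87 in non-exercised and 98.64 in exercised fish, and the small at 99.05 and 98.90. Single probes near 0 turned to lower calls for rpl19 (-0.69 after quantile normalization), rpl7 (-0.37 after cyclic loess, and -0.44 and -0.50 after quantile normalization and cyclic loess with outlier spots kept) and rps7 (-0.36 after cyclic loess with outlier spots kept). The methods' t-test called 0 large and 1 small subunit probe, rps24, at its unadjusted threshold of 0.01, and the same counts after Benjamini-Hochberg adjustment. The replicate number was no stated pairing, and the correlation of fish with the same number was 0.029 to 0.415. With a replicate block the medians were -0.13 and 0.11, 0 probes were called lower in either subunit, and 1 small subunit probe was called higher. Shares over all probes are given above for some of these settings only. For the t-test, the replicate block, the filter on 8 arrays and most fits without 1 fish, the counts describe the members alone. Outlier spots left many bright probes with few fish, which limits precision.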
